A study of Mus musculus with 18 samples.

Results

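Small extracellular vesicles (sEVs) from cultured microglia were compared directly with sEVs from cultured neurons, with 3 libraries on each side, by long-read sequencing of full-length cDNA. These 6 libraries are the microglia sEV and neuron sEV columns of a count table of 18 libraries, chosen by their sample labels alone. The study made sEVs from primary mouse brain cultures of neurons, astrocytes and microglia and sequenced them beside their source cells, to examine which mRNAs each cell type packs into its vesicles. All 9 sEV libraries were pooled and run together on 2 PacBio SMRT cells, so microglia and neuron sEVs share a sequencing pool, while the cell libraries formed a separate pool. Each library began from 100 ng of cDNA that had been reamplified for 10 cycles. Both groups are described only as sEVs of a primary brain culture of the named cell type; the strain, the age of the animals, the culture medium, any stimulus and the way the vesicles were isolated were not given in the sources used here. Whether replicates came from separate cultures is also not given, so the p-values reflect the spread among libraries alone, which may be technical. For the gene and isoform tests that spread was estimated over all 18 libraries, with the cell and astrocyte libraries included.

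sEVs are membrane-bound particles that cells release from endosomes or from the plasma membrane, and they carry proteins, lipids and RNA from the cell that made them. Microglia are the resident macrophages of the brain: they clear debris through lysosomes and, when stimulated, secrete chemokines and cytokines and switch on interferon-induced genes. Neurons make vesicles along the cell body, axon and dendrites, and their mRNA is rich in messages for microtubule, growth cone and synaptic proteins.

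The 6 sEV libraries held 479397 to 667845 counted reads. Between 5369 and 7036 gene labels had reads in a microglia sEV library, against 8050 to 8975 in a neuron sEV library. Log-scale levels correlated at r = 0.835 to 0.870 between libraries of one group and at 0.222 to 0.270 across groups (a description over genes). The 10 genes with the most reads took 16.3% to 20.1% of a microglia sEV library and 29.1% to 33.3% of a neuron sEV library. Levels below are CPM (each read as a share of the TMM-scaled library size, times 1e6), counted in reads and not per length, so levels of different genes are not ranked. No isoform entry held a single read (the lowest above 0 was 2), so an entry of 0 may hide single reads.

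The labels were checked against marker genes. Microglia markers (23 genes) summed to 19534 to 28834 CPM of the unscaled totals in microglia sEVs and to 10.5 to 19.1 in neuron sEVs. Tmem119, Itgam and Ly86 had no reads in microglia sEVs. Neuron markers (24 genes) summed to 3503 to 4446 CPM in neuron sEVs and to 0 to 92.0 in microglia sEVs, where 17 of them had no reads. Syp, Elavl4, Slc17a7 and Ina, also neuronal markers, had no reads in neuron sEVs. Astrocyte markers (20 genes) were present on both sides, at 3586 to 9257 CPM in microglia sEVs and 4209 to 5892 in neuron sEVs, against 16784 to 30396 in astrocyte sEVs. In microglia sEVs most of that sum was Apoe, which microglia also express. In neuron sEVs it included Gfap, the astrocyte intermediate filament, at 1847, 2958 and 1698 CPM against 34.4, 75.7 and 21.4 CPM in microglia sEVs. Of 16 astrocyte markers tested, 10 were called higher in neuron sEVs, where 32.0% of all genes tested were, and 1 (Apoe) was called higher in microglia sEVs, where 19.9% were. Neuron sEVs thus also carried astrocyte transcripts, and their part in the differences below was not tested. In bulk samples, fewer vesicles of a kind and less RNA in each cannot be told apart.

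The first question is which genes differ between the 2 vesicle sources. Of 8184 genes with enough reads to test, 4252 (52.0%) differed at an adjusted p under 0.05 by the quasi-likelihood test of edgeR, adjusted over all genes tested by the Benjamini-Hochberg method, the test behind every adjusted p given here unless another is named. Of these, 1630 (19.9%) were higher in microglia sEVs and 2622 (32.0%) were higher in neuron sEVs. The 3 libraries of one group all lay above the 3 of the other in 1654 genes toward microglia sEVs (20.2%) and 2682 toward neuron sEVs (32.8%). Most called differences were large: 4154 of the 4252 exceeded 2-fold. Of the called genes, 532 had no reads in any neuron sEV library and 1188 had none in any microglia sEV library. The median log2 difference over all genes, microglia minus neuron, was -0.65. A gene that passed the filter on low counts only through the group where it is high had to differ, so the counts of list members below are descriptions to be read against these background shares.

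Several chemokine messages had many reads in microglia sEVs and none in neuron sEVs. Ccl3, which encodes the leukocyte attractant MIP-1 alpha, stood at 16428, 16975 and 14769 CPM in the microglia sEV libraries and had no reads in the neuron sEV libraries. The level was at least 2895-fold higher in microglia sEVs, where "at least" sets an empty group at 3 reads per library (adjusted p = 1.1e-06). Ccl4, its close relative, was read at 13069.9, 11208 and 10201 CPM against no reads. That difference was at least 2072-fold (adjusted p = 1.4e-06). Ccl7, which attracts monocytes, had 9096, 9484 and 8717 CPM against no reads, at least 1641-fold higher. Ccl5 had 8028, 7640.2 and 5411 CPM against no reads, at least 1267-fold higher. In each of these 4 genes every microglia sEV library was high and every neuron sEV library was empty. Of 18 chemokines listed, 16 could be tested: 14 were higher in microglia sEVs, where the share over all genes was 19.9%, and none was higher in neuron sEVs. Their median log2 difference was 12.77, or 8.42 with empty groups at the floor. Cx3cl1 and Cxcl14, chemokines also made by neurons, were not called. Cx3cl1 had no reads in either sEV group. Cxcl14 stood at 29.0, 9.71 and 13.1 CPM in microglia sEVs and 29.9, 71.7 and 55.1 CPM in neuron sEVs.

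Cytokine messages followed the same pattern. Il12b, the p40 subunit shared by interleukins 12 and 23, had 6298, 12344 and 12622 CPM in microglia sEVs and no reads in neuron sEVs (at least 1879-fold, adjusted p = 1.7e-06). Il1a, an early inflammatory cytokine, had 9248, 9193 and 11619 CPM against no reads (at least 1807-fold). Library 1 held about as much Il1a as library 2 but less Il12b than either of the other libraries. Tnf had 1651, 1458 and 1292 CPM against no reads (at least 265-fold). Il1b had 2032, 3084 and 2576 CPM, and 5.33 CPM in 1 neuron sEV library. Of 17 cytokine genes listed, 13 were tested and 12 were higher in microglia sEVs, while Csf1, with no reads in either sEV group, was not called. Their median was 10.35, or 7.52 with empty groups at the floor.

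The interferon response list, made of genes induced by type I or type II interferon, had 30 genes, of which 29 were tested. All 29 were called higher in microglia sEVs, with a median log2 difference of 10.47, or 7.73 with empty groups set at the floor, against -0.65 and -0.62 for all genes. Ifit2, which binds foreign RNA, had 6977, 11761 and 18886 CPM in microglia sEVs and 16.6, 21.1 and 26.7 CPM in neuron sEVs. The difference was 9.18 on the log2 scale (SE 0.93, adjusted p = 5.5e-07), and the groups did not overlap although the microglia libraries themselves spread widely. Ifit3, of the same family, had 7981, 10501 and 12016 CPM against no reads (at least 1833-fold). Isg15, a ubiquitin-like modifier, had 2553, 2488 and 2081 CPM against no reads (at least 428-fold). Ifi205 and Ifi211, genes of the interferon-inducible p200 family outside the list, had means of 5621 ± 768 and 4608 ± 690.3 CPM (SD, n = 3) against no reads.

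Interferon induces many of its targets through the interferon-stimulated response element, and the cytokine and chemokine genes are classical targets of NF-kB. Promoters from RefSeq (assembly GRCm38.p6) were searched over the 250 bases before the gene start, on both strands, for the letters GAAA, any 2 bases and GAAA again, and for GGGNNTTCC. The first occurred in 13 of the 24 interferon list genes with a promoter in the table (54.2%), in 3.53% of the 6524 tested genes with one, in 7.62% of those called higher in microglia sEVs and in 2.18% of those called higher in neuron sEVs. The second occurred in 6 of 14 genes of the NF-kB pathway list (42.9%), 3 of 13 chemokines (23.1%) and 1 of 12 cytokines (8.33%), against 7.31% of tested genes. It occurred in 8.63% of those called higher in microglia sEVs and in 6.82% of those called higher in neuron sEVs. These are letter matches in one window and not measured binding sites. Windows are shown only for genes with a match. Il12b and Ccl4 (second motif) and Ccl5 (both motifs) were also looked up and gave none, for want of a match or of a promoter. The matches (capitals) are shown for 3 genes named here, with 12 bases on each side, for Isg15 (chr4:156200863-156200908, minus strand), Ifit3 (chr19:34583361-34583428, plus strand) and Cxcl10 (chr5:92349081-92349114 and chr5:92348972-92349004, minus strand). In the Ifit3 promoter the letters are on the opposite strand and read as their reverse complement.
Isg15 response element: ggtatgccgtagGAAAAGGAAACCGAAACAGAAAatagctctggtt
Ifit3 response elements: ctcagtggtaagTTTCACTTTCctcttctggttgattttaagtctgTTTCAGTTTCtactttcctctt
Cxcl10 response element: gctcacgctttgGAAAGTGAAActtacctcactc
Cxcl10 NF-kB letters: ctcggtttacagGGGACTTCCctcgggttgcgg
Isg15 holds 3 overlapping matches in 1 run, 78 to 66 bases before the start, Ifit3 has 2 separate ones, and Cxcl10 has 1 of each motif. Cxcl10, a chemokine that interferon induces, had 4181, 3882 and 3948 CPM in microglia sEVs and no reads in neuron sEVs (at least 722-fold).

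NF-kB is held in the cytoplasm by inhibitors that its own activity resupplies. Of 20 genes of the pathway and its feedback loop, 18 were tested and 16 were higher in microglia sEVs; the kinase subunits Ikbkb and Ikbkg were not called. Tnfaip3, the feedback inhibitor A20, had 254, 322 and 442 CPM against no reads. Nfkbib, an inhibitor of NF-kB, was read in both groups, at 555, 714 and 751 CPM against 29.9, 29.5 and 37.3 CPM. It was 20.9-fold higher in microglia sEVs (log2 4.37, SE 0.34, adjusted p = 5.1e-08).

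Messages of antigen presentation and of the lysosome were also higher in microglia sEVs. Of 15 genes of MHC class I and peptide loading, 14 were tested and 12 were called. B2m, the invariant light chain of MHC class I, had 1731, 1180.2 and 1238 CPM against 29.9, 10.5 and 17.8 CPM (log2 6.12, SE 0.43, adjusted p = 2.5e-08). Psmb10, an immunoproteasome subunit, was not called, at 245, 225 and 201 CPM against 91.2, 162 and 151 CPM (adjusted p = 0.071). All 26 lysosome and phagocytosis genes were tested, and 23 were called higher in microglia sEVs, with a median log2 difference of 4.06. Ctsb, the protease cathepsin B, had 5114, 2886 and 4667 CPM against 64.7, 67.5 and 67.5 CPM (log2 5.98, SE 0.42, adjusted p = 2.5e-08). Npc2, a lysosomal cholesterol carrier, differed less, at 1716, 1351 and 1366 CPM against 551, 852 and 517 CPM (log2 1.21, SE 0.27, adjusted p = 0.0013). Psap and Mcoln1 were among the 3 not called.

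Of the 19 microglia markers tested, 18 were called higher in microglia sEVs, and Itgam, with no reads in either sEV group, was not. Lyz2, lysozyme of macrophages, had 9717, 8193 and 9063 CPM against no reads (at least 1621-fold). C1qb, a complement subunit, was uneven, with 1691 and 1553 CPM in libraries 1 and 3 but 25.2 CPM in library 2. All 20 genes of the disease-associated microglia list were tested. Of these 17 were higher in microglia sEVs, 1 was higher in neuron sEVs (Ftl1, described below) and Axl and Csf1 (no reads in either sEV group) were not called. Spp1, osteopontin, had 3083, 2492 and 3922 CPM against no reads, and Lgals3, galectin-3, had 3943, 3401 and 3598 CPM against no reads.

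**Figure D1:**
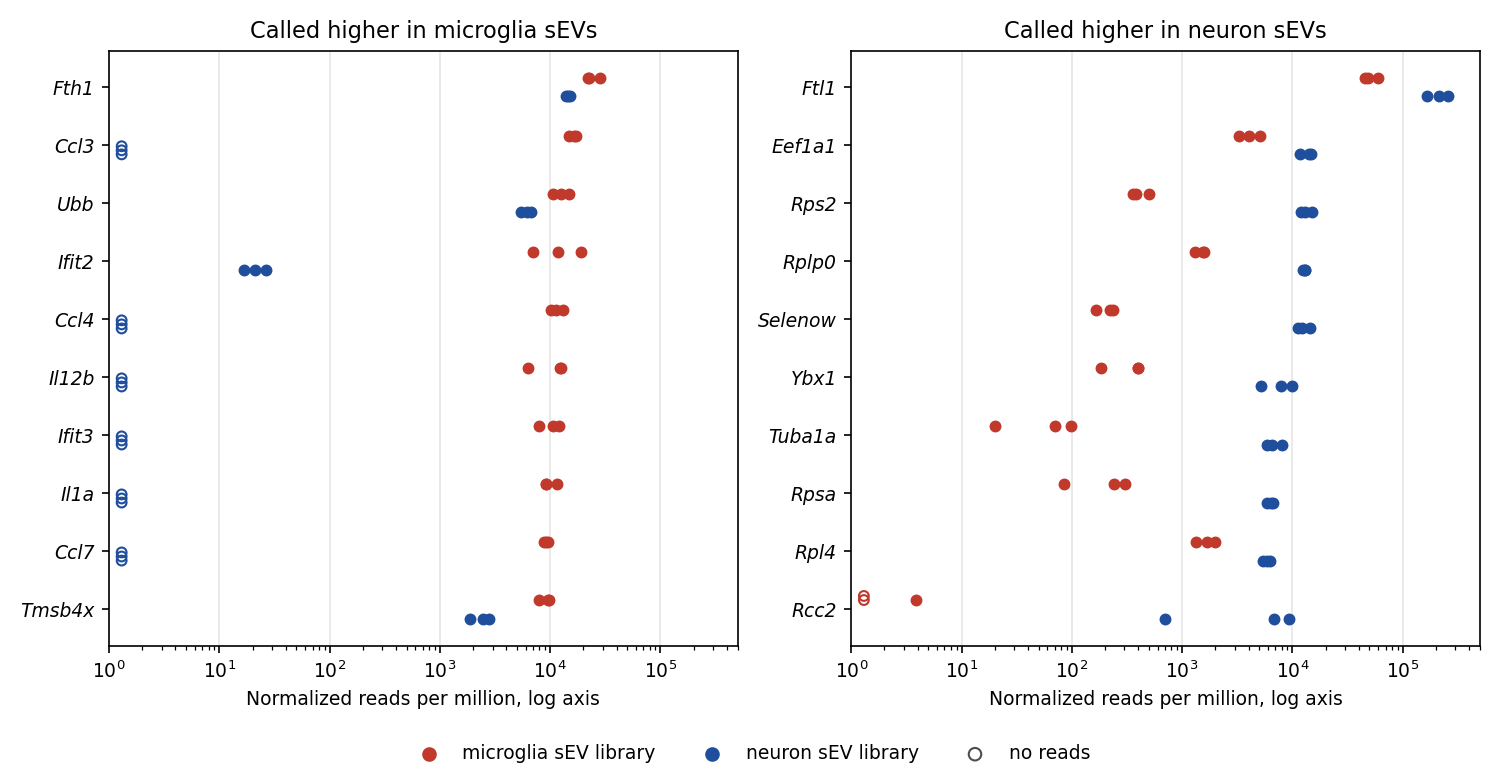
Normalized CPM in each sEV library (log axis) for the 10 named genes with the highest mean level among those called in each direction and not overlapping between groups. Predicted genes, unannotated loci and read-throughs were left out of this ranking, though some had high levels. Filled points are libraries with reads and open circles at the left edge are libraries with none. Ccl3, Ccl4, Il12b, Ifit3, Il1a and Ccl7 have no reads in neuron sEVs, while Fth1, Ubb and Tmsb4x are read in all 6 libraries.

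Of 22 actin and thymosin genes, 21 were tested, 14 were higher in microglia sEVs and 3 were higher in neuron sEVs. Tmsb4x, which sequesters actin monomers, had 9683, 9579 and 7878 CPM against 2435, 1892 and 2764 CPM (log2 1.94, SE 0.32, adjusted p = 8.1e-05). Its paralogue Tmsb10 went the other way, with 659.7, 375 and 348 CPM against 3912, 2972 and 5498 CPM (log2 -3.16, SE 0.33, adjusted p = 8.1e-07). The actin bundling gene Lcp1 was uneven, with 114, 311 and 2775 CPM against no reads.

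Of 26 genes of vesicle biogenesis and the vesicle surface, 24 were tested, 11 were higher in microglia sEVs, 1 (Flot2) was higher in neuron sEVs and 12 were not called. Sdcbp, syntenin-1, which helps load endosomal vesicles, had 2416, 4224 and 4778 CPM against 118, 158 and 121 CPM (log2 4.85, SE 0.34, adjusted p = 2.7e-08). The tetraspanin message Cd63 had 1219.6, 753 and 684 CPM against 24.9, 61.2 and 39.1 CPM (log2 4.41, SE 0.38). The tetraspanin message Cd81 overlapped between groups, at 397, 342 and 322 CPM against 189, 373 and 292 CPM, and was not called (log2 0.31, SE 0.28, adjusted p = 0.36).

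Proteins that bind RNA and have been named in sorting it into vesicles split between the sides: of 16 tested out of 19 listed, 7 messages were higher in microglia sEVs and 2 in neuron sEVs. The shares over all genes tested were 19.9% and 32.0%. Hnrnpk had 1225, 1675 and 1887 CPM against 222, 156 and 244 CPM (log2 2.94, SE 0.29, adjusted p = 4.8e-07). Ybx1, the cold-shock protein YB-1, had 401, 396 and 184 CPM against 7834, 9907 and 5164 CPM (log2 -4.55, SE 0.51, adjusted p = 1.7e-06). Neither pair of groups overlapped. Ubb, a polyubiquitin gene, had 10679.5, 14682 and 12563 CPM against 6206, 5464 and 6661 CPM, 2.07-fold higher in microglia sEVs (adjusted p = 0.0033). Of 41 proteasome genes tested, 23 were higher in microglia sEVs and 2 (Psmb4 and Psmb5) in neuron sEVs.

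On the neuron side, the cytoskeleton and growth cone list had 31 genes, of which 25 were tested. Of these 22 were higher in neuron sEVs, where the share over all genes was 32.0%, and 2 were higher in microglia sEVs (Marcksl1 and Cfl1, which microglia also express). Ina, with no reads in either sEV group, was not called. The median log2 difference was -6.68, or -5.77 with empty groups at the floor. Tuba1a, the main alpha-tubulin of young neurons, had 8002, 5899 and 6554 CPM in neuron sEVs and 19.9, 69.9 and 98.6 CPM in microglia sEVs (log2 -6.75, SE 0.48, adjusted p = 2.7e-08). Gap43, a growth cone protein, had 1905, 2042 and 1598 CPM against 0, 13.6 and 34.5 CPM (log2 -6.80, SE 0.67, adjusted p = 9.9e-07). Kif5a, a kinesin motor of axonal transport, had 1340.0, 859 and 786 CPM against no reads in microglia sEVs (at least 184-fold, adjusted p = 5.3e-07).

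Of 24 genes of synaptic vesicles and release, 20 were tested, 15 were higher in neuron sEVs and 1 was higher in microglia sEVs (Atp6v0c, a proton pump subunit also found in lysosomes). Atp6v1g2, the brain form of a proton pump subunit, had 209, 386 and 277 CPM against 21.7, 15.5 and 18.1 CPM (log2 -3.96, SE 0.47, adjusted p = 3.3e-06). Rab3a, a GTPase of vesicle release, had 302, 167 and 203 CPM against 0, 0 and 11.5 CPM. Of 14 neuropeptide and granin genes tested out of 16 listed, 8 were higher in neuron sEVs, and a fit of the 6 sEV libraries alone, which tested 5 of these genes, called 4. Pcsk1n, the proSAAS precursor, had 575, 857 and 529.7 CPM against no reads (at least 121-fold), and Cck, cholecystokinin, had 274, 253 and 148 CPM against no reads. Of 15 neural development transcription factors tested out of 24 listed, 11 were higher in neuron sEVs and 2 (Zeb2 and Id2) were higher in microglia sEVs; the 6-library fit tested 8 of them and called 5 higher in neuron sEVs. Sox11 had 439, 314 and 277 CPM against no reads. Of 8 neuronal RNA-binding protein genes tested out of 17 listed, 5 were higher in neuron sEVs, among them Celf4 and Rbfox3, and the fit of the 9 sEV libraries tested 6 and called 3.

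Other genes with large differences toward neuron sEVs were not on these lists. Metrn, a secreted factor of neural progenitors and glia, had 1531, 2576 and 2682 CPM against no reads (at least 419-fold, adjusted p = 3.5e-08). Stradb, a pseudokinase, had 1968, 3053 and 1442 CPM against no reads (at least 399-fold). Rdh10, which oxidises retinol, and Mmd2 had means of 1083 ± 259.6 and 837 ± 345 CPM (SD, n = 3) against no reads. Arhgdig, Serp2 and Septin3 had means of 748 ± 176, 709 ± 208 and 615 ± 213 CPM against no reads, all at least 114-fold higher. Selenow, a small selenoprotein, was read in both groups, at 12310.2, 11349.9 and 14363 CPM against 221, 235 and 164 CPM, 61.3-fold higher in neuron sEVs (adjusted p = 1.9e-09). Rcc2, a chromatin and cell division protein, was uneven, with 6808 and 9286 CPM in neuron sEV libraries 1 and 3 but 700.4 CPM in library 2. In astrocyte sEVs, mean levels were 813 CPM for Metrn, 1084 for Stradb, 476 for Rdh10, 710.1 for Mmd2 and 3212 for Rcc2. They were 1389 for Selenow, 75.3 for Septin3, 12.9 for Arhgdig and 7.603 for Serp2. In neuron cells, sequenced in a separate pool, Rcc2 had no reads, and means were 13.7 CPM for Rdh10, 42.5 for Metrn, 57.04 for Stradb and 400.3 for Mmd2. The part of astrocyte transcripts in these differences was not tested.

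The 2 ferritin subunits, which together store iron, moved in opposite directions. Ftl1, the light chain, took 14.9%, 23.2% and 19.5% of all reads in the neuron sEV libraries and 6.94%, 4.47% and 4.50% in the microglia sEV libraries. It was 4.12-fold higher in neuron sEVs (log2 -2.04, SE 0.36, adjusted p = 0.00015), with no overlap. Fth1, the heavy chain, had 28246, 21927 and 22598 CPM in microglia sEVs and 14491, 13974 and 15218 CPM in neuron sEVs, 1.67-fold higher in microglia sEVs (adjusted p = 0.024). The groups did not overlap, but the Fth1 call was lost without microglia sEV library 1 (adjusted p = 0.0655), without neuron sEV library 1 (0.0589) or without neuron sEV library 2 (0.0576). Ferritin genes, ribosomal protein genes, tubulins, ubiquitin genes and the Ifit and Ccl families have close copies in the genome, so reads could be split among copies in the authors' counting. In astrocyte sEVs Ftl1 took 18.5% to 31.5% of reads.

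**Figure D2:**
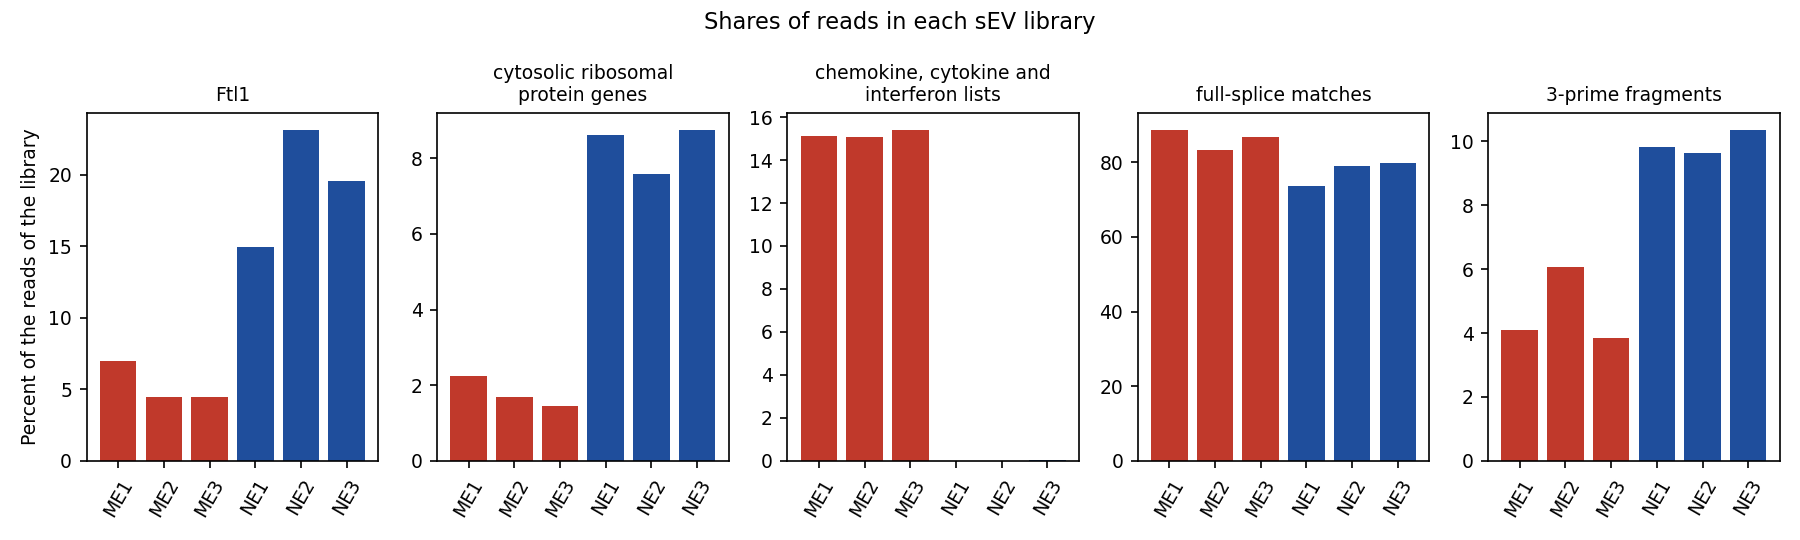
Percent of the reads of each sEV library, from 0, in 5 panels with 1 bar per library: microglia sEVs in red (ME1 to ME3) and neuron sEVs in blue (NE1 to NE3). The chemokine, cytokine and interferon lists together take 15.1%, 15.1% and 15.4% of the microglia sEV reads and under 0.02% of the neuron sEV reads, while Ftl1, cytosolic ribosomal protein genes and 3-prime fragments take larger shares in neuron sEVs.

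Messages for the protein synthesis machinery were higher in neuron sEVs. Of 48 large ribosomal subunit genes, 43 were tested, 36 were higher in neuron sEVs and none was higher in microglia sEVs, with a median log2 difference of -2.21. Of 32 small subunit genes, 29 were tested, 23 were higher in neuron sEVs and 2 (Rps24 and the stress-induced Rps27l) were higher in microglia sEVs, with a median of -1.73. Both lists together took 8.63%, 7.57% and 8.76% of the neuron sEV reads and 2.24%, 1.70% and 1.44% of the microglia sEV reads. Rps2, a small subunit protein, had 14959, 13042 and 11969 CPM in neuron sEVs and 497, 380.5 and 358 CPM in microglia sEVs, 32.4-fold higher (log2 -5.02, SE 0.32, adjusted p = 1.4e-08). Rpsa, also the laminin receptor, had 5856, 6363 and 6737 CPM against 303, 243 and 85.5 CPM (log2 -4.91, SE 0.39). Rplp0, of the ribosomal stalk, had 13118, 13122 and 12553 CPM against 1299, 1549 and 1578 CPM (log2 -3.13, SE 0.23, adjusted p = 4.2e-08). The libraries of each group lay close together for Rplp0 and far from the other group. Rps24 was low on both sides, at 94.2, 89.3 and 64.1 CPM in microglia sEVs and 4.98, 0 and 3.56 CPM in neuron sEVs.

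Translation factors were called on both sides. Of 37 tested, 16 were higher in neuron sEVs and 6 were higher in microglia sEVs. Over all genes tested these shares were 32.0% and 19.9%. On the neuron side, Eef1a1, which brings tRNA to the ribosome, had 14290.3, 11612 and 14777 CPM against 3304, 5121 and 4047 CPM (log2 -1.71, SE 0.26, adjusted p = 3.8e-05). Eef2, which moves the ribosome along the message, had 3556, 4086 and 3681 CPM against 393, 582 and 503 CPM (log2 -2.94, SE 0.27). The initiation helicase Eif4a1 was higher in microglia sEVs, at 1823, 1859.6 and 2267 CPM against 285, 169 and 313 CPM (log2 2.95, SE 0.26, adjusted p = 1.9e-07).

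Nuclear-encoded respiratory chain messages were also higher in neuron sEVs. Of 90 such genes, 87 were tested, 66 were higher in neuron sEVs and 1 (Cycs, cytochrome c) was higher in microglia sEVs, with a median log2 difference of -2.0. Atp5o, an ATP synthase stalk subunit, had 1972, 1888 and 2313 CPM against 248, 359 and 253 CPM (log2 -2.84, SE 0.25, adjusted p = 1.9e-07). Cycs had 1321, 1829 and 1417 CPM in microglia sEVs and 667, 684 and 921 CPM in neuron sEVs (log2 1.01, SE 0.28, adjusted p = 0.0068). Of 76 mitochondrial ribosomal protein genes tested, 25 were higher in neuron sEVs, near the share of 32.0% over all genes tested. Another 6 were higher in microglia sEVs, where that share was 19.9%, and 45 were not called. Fits of the 9 sEV libraries or with no filter called 13 and 12 higher in neuron sEVs.

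**Figure D3:**
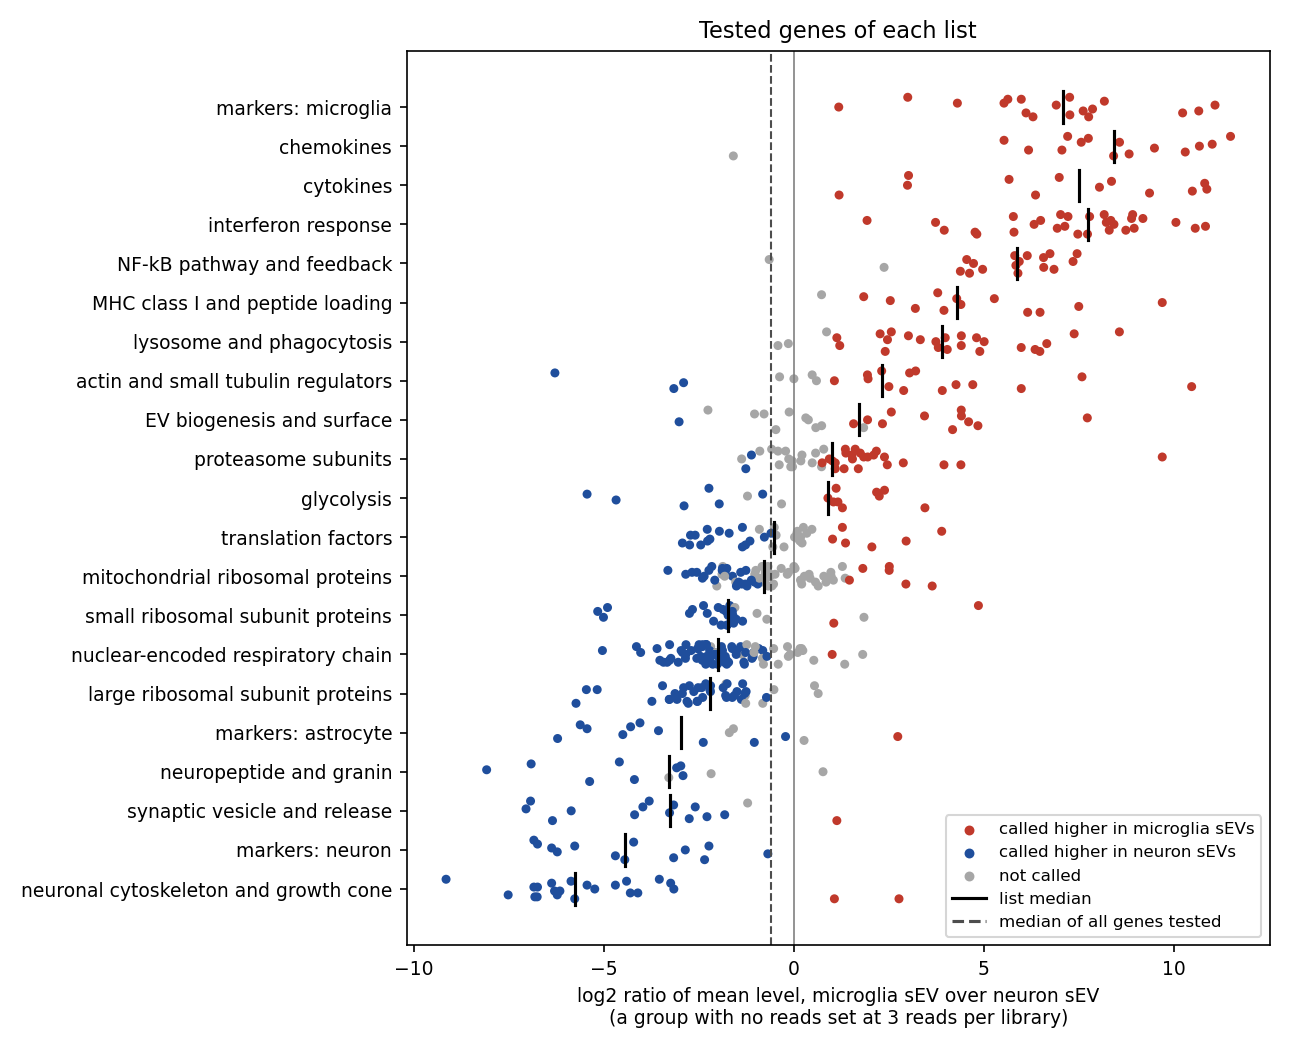
Log2 ratio of mean level, microglia sEV over neuron sEV, for the tested genes of 21 lists with a mean level above that of 3 reads per library in either group (points; red called higher in microglia sEVs, blue called higher in neuron sEVs, grey not called), with an empty group set at 3 reads per library. Black bars are list medians and the dashed line is the median over all such genes tested, -0.62; the interferon median is 7.73 and the cytoskeleton and growth cone median is -5.77.

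The study's source cells allow the sEV difference to be set beside the cell difference, and these comparisons share no library. Between microglia cells and neuron cells, 3546 genes were called (43.3%), 1357 higher in microglia cells (16.6%) and 2189 higher in neuron cells (26.7%). Of the 4252 genes called between the sEVs, 2592 (61.0%) were called in the same direction in the cells, 1618 were not called in the cells and 42 were called in the opposite direction. The other way round, 73.1% of the genes called in cells were called in the same direction in sEVs. Over 3580 genes with at least 10 reads in all 4 groups, the sEV and cell differences correlated at Pearson's r = 0.709 and Spearman's rho = 0.659, a description across genes, which are not independent replicates. In the cells, all 29 interferon genes tested and all 19 microglia markers tested were higher in microglia cells, and 23 of 25 cytoskeleton genes tested were higher in neuron cells. Of the neuron markers, 18 of 18 tested were higher in neuron cells and 14 in neuron sEVs. Of the synaptic genes, 19 of 20 tested were higher in neuron cells and 15 in neuron sEVs. Of the neuropeptide and granin genes, 12 of 14 tested were higher in neuron cells and 8 in neuron sEVs. In these lists Syp, Ina, Syt4, Scg2, Pcsk1 and Penk had no reads in either sEV group and could not be called there. The fitted neuropeptide medians were -9.62 in cells and -2.97 in sEVs, but fitted values against empty groups are not sizes to rely on. With empty groups at the floor the sEV median was -3.30 over 11 genes, and no such cell median was computed. Levels could still differ, as for Ctsb, whose means were 45775 CPM in microglia cells and 2157 CPM in neuron cells against 4222 and 66.6 CPM in their sEVs. Cell and sEV libraries were sequenced in separate pools, so a difference in level between cells and sEVs cannot be told apart from one between pools.

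The test of the difference between the sEV contrast and the cell contrast called 421 genes (5.14%). The sEV contrast was lower, that is further toward neurons, in 263 (3.21%), and higher in 158 (1.93%). This split depended on scaling: with plain library totals in place of TMM factors, 871 genes were called, 743 of them higher and 128 lower, and the median over all genes moved from 0.02 to 0.89. The call was made for 22 of 43 large and 15 of 29 small ribosomal subunit genes tested, all lower; without TMM it was made for 9 and 6 of them, and 1 small subunit gene was then higher. In the cells the median log2 differences of these lists were -0.26 and -0.02, against -2.21 and -1.73 in the sEVs. Rplp0 had means of 966 CPM in microglia cells and 1007 CPM in neuron cells (log2 -0.06, SE 0.22), and the sEV difference minus the cell difference was -3.07 (SE 0.31, adjusted p = 3.0e-05). Rps2 had means of 325 and 736 CPM in the cells, and its sEV difference went -3.84 further (SE 0.40, adjusted p = 3.8e-05). Rpl9, Rpl8 and Eef1g gave -3.20, -3.33 and -2.55. For the respiratory chain list the cell median was already -1.27, and the call was made for 5 genes lower and 1 higher, against none lower and 7 higher without TMM. The call was also made for 4 neuropeptide and granin genes, all higher, and for 3 synaptic genes higher and 1 lower.

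Of the 42 genes called in opposite directions, 34 were higher in neuron sEVs but in microglia cells, and 8 were higher in microglia sEVs but in neuron cells. Ftl1 had means of 27016 CPM in microglia cells and 5853 CPM in neuron cells (log2 2.21, SE 0.36, adjusted p = 0.0001), the reverse of its order in the vesicles. Evl, an actin regulator, had 156 and 21.5 CPM in the cells (log2 2.84, SE 0.48) and 149, 97.1 and 136 against 662, 477 and 677 CPM in the sEVs (log2 -2.25, SE 0.43, adjusted p = 0.00039). Csnk1d, a casein kinase, and Wars, the tryptophan tRNA synthetase, had log2 differences of -2.37 and -2.69 in sEVs and 1.33 and 1.15 in cells. Kctd10 and Gnl1, a GTPase, had -2.98 and -1.81 in sEVs and 1.53 and 1.66 in cells. Rpl4 and Eef1a1 had -1.80 and -1.71 in sEVs and 0.71 and 0.67 in cells. Rraga, a GTPase of nutrient sensing at the lysosome, went the other way, with 101, 111 and 171 against 49.8, 48.5 and 42.7 CPM in sEVs (log2 1.44, SE 0.28) and -0.76 in cells. Without TMM scaling, 95 genes were opposite, 81 of them higher in microglia sEVs, and 4 of these 9 genes (Ftl1, Evl, Gnl1 and Rraga) were still called in opposite directions. DESeq2 called 60 genes opposite, with all 9 among them. Without microglia cell library 1, 2 or 3 the count was 26, 25 or 27.

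**Figure D4:**
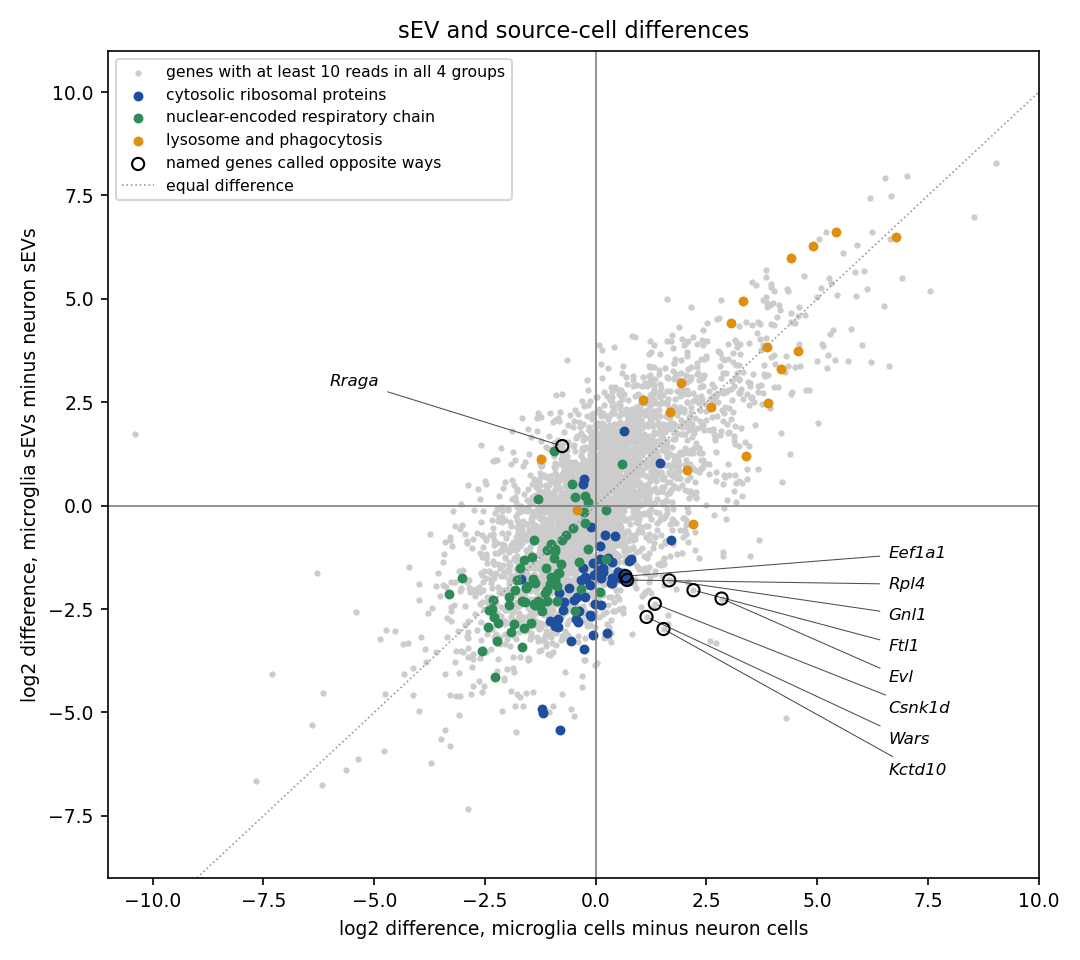
Log2 difference between microglia and neuron sEVs (vertical) against that between microglia and neuron cells (horizontal) for 3580 genes with at least 10 reads in each of the 4 groups (grey), with 3 lists coloured and the 9 named genes that were called in opposite directions circled. Most cytosolic ribosomal protein genes lie below the dotted line of equal difference, with cell medians of -0.26 (large subunit) and -0.02 (small subunit); Rraga is the circled gene above 0 on the vertical axis.

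Long reads also separate isoforms. Of 9370 isoforms tested, 3778 (40.3%) differed, 1872 higher in microglia sEVs (20.0%) and 1906 higher in neuron sEVs (20.3%); a fit of the 6 sEV libraries alone tested fewer isoforms and called 2400. The isoforms with the smallest p belonged to Selenow, Gstm5, Fabp7 and Stradb toward neuron sEVs and to Snx2, Prdx1, Sbds and Plin2 toward microglia sEVs. The isoform of Snx2, a sorting nexin of the endosome, had a mean of 2266 ± 803 CPM in microglia sEVs and 20.4 ± 6.0 CPM in neuron sEVs (SD, n = 3).

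Isoform usage, the share of a gene's reads that each of its isoforms takes, differed in 112 of 1752 genes with 2 or more isoforms tested (6.39%), by edgeR's exon-level test with Simes p-values and Benjamini-Hochberg adjustment. The count fell to 60 without microglia sEV library 1 and 57 without library 2, and was 313 by the gene-level F test. In Rpl13a the reference isoform took 99.2%, 96.8% and 98.9% of reads in microglia sEVs and 70.1%, 69.3% and 70.6% in neuron sEVs, where an isoform with another 3-prime end took 27.3%, 14.3% and 10.9% and was unread in microglia sEVs (adjusted p = 1.8e-06). In Marcksl1 an isoform with an exon outside the annotation took 31.9%, 44.6% and 18% of reads in microglia sEVs and none in neuron sEVs. In Lims1, an adaptor of integrin signalling, an isoform with such an exon took 64.7%, 48.2% and 51.4% in microglia sEVs and none in neuron sEVs. In Tpd52 a new combination of known junctions took 60.5%, 30.6% and 45.8% in neuron sEVs and none in microglia sEVs. In Tsc22d1 an isoform with another 5-prime end took 33.6%, 42.5% and 33.4% in neuron sEVs and none in microglia sEVs, and in Ssna1 such an isoform took 35.7%, 42.4% and 40.9% against none. In H3f3b, a histone variant gene, 1 isoform took 60.9%, 96.4% and 97.1% in microglia sEVs and none in neuron sEVs, so library 1 stood apart from the other 2. Tpm3, a tropomyosin, was also called, with uneven neuron sEV libraries.

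Isoform identity in the table can differ between libraries of one group. Nearly all Fth1 reads stood under one isoform number in microglia sEV libraries 1 and 2 (15571 and 11084 reads, none in library 3) and under another in microglia sEV library 3 and the neuron sEV libraries (13736, 8738, 6624 and 8559 reads). Gene sums add both, so gene-level values are not touched by this split, but the 3778 isoform calls and 112 usage calls may rest partly on such splits.

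The reads also differed in their match to the annotation. Full-splice matches, reads with every junction of a known transcript, made up 88.7%, 83.2% and 86.8% of reads in microglia sEVs and 73.7%, 78.9% and 79.7% in neuron sEVs. Fragments that keep the 3-prime end but lack upstream junctions made up 4.10%, 6.06% and 3.85% in microglia sEVs and 9.83%, 9.63% and 10.4% in neuron sEVs. Means were 1.60% in microglia cells and 3.83% in neuron cells, which were sequenced in a separate pool. Neither measure overlapped between the sEV groups, and each had an exact two-sided permutation p of 0.1, the smallest that 3 against 3 libraries allow. Over 8 categories the adjusted p was 0.133 for the 6 whose groups did not overlap, so no category passed. The share of fragments moves with the groups, and its part in the gene differences was not tested. Isoforms marked IEJ in the table, a term not explained in the sources used here, took 7.96% of neuron sEV library 1 against 0.624% and 0.618% in libraries 2 and 3. The predicted gene Gm42047, named after its values were seen, took 8.94%, 1.63% and 0.588% of the reads of these libraries.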

How the data were processed

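Full-length cDNA of 18 libraries was sequenced on a PacBio instrument. The deposited table holds the authors' raw read counts per isoform, with no normalization, for 114425 isoforms under 17714 gene labels, beside the deposited structural category of each isoform; every count column was mapped to a sample by its label. The submitters' processing notes name minimap2 and GRCm39. The isoform caller, its filters and the annotation were not given in the sources used here.

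Counts were summed per gene and tested in one fit of all 18 libraries with edgeR 4.0.16 in R 4.3.3 (filterByExpr, TMM factors, quasi-likelihood test, threshold 0.05), as the contrast of microglia sEV minus neuron sEV, the same contrast in cells, and their difference. Standard errors are the absolute log2 difference divided by the square root of F. Totals of the 6 sEV libraries were 479397 to 667845 reads. The floor for genes without reads was set by choice at 3 reads per library, and every "at least" fold depends on it. The common dispersion corresponds to a coefficient of variation of 0.556. Shares of reads were compared with exact permutation tests. DESeq2 1.42.0 and the other alternatives stand in the closing section. The fits were tested on simulated data. In the gene-level simulation few genes changed, equally often up and down. It therefore cannot show how the scaling performs in these data, where far more genes differed and not evenly. Of 17714 gene labels, 14896 matched a RefSeq symbol.

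Gene lists and members were chosen with earlier results of these data known. Named genes were, among called genes whose groups did not overlap and whose higher group had a mean count of 20 or more, the 10 with the highest level and the 10 with the largest fitted difference each way. The 10 smallest p of the difference contrast, the 8 smallest p of isoforms and of usage, and the 10 opposite genes with the smallest sEV p were added, with list members as examples. A few genes that these rules name are not reported here. Predicted genes, unannotated loci and read-throughs were passed over except where stated.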

Additional observations from a re-analysis of the deposited data

Results flagged for a closer look

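The test of the difference between the sEV and cell contrasts called 421 genes, with 3 libraries in each of the 4 groups. It was the quasi-likelihood test of edgeR, adjusted by the Benjamini-Hochberg method. The 17 genes given here were picked from them by smallest p or by opposite calls in sEVs and cells. Values are log2, sEV difference minus cell difference. Among ribosomal protein genes they were -3.20 for Rpl9, -3.07 for Rplp0, -3.84 for Rps2, -3.33 for Rpl8 and -2.51 for Rpl4. The elongation factor genes Eef1g and Eef1a1 had -2.55 and -2.38. Ftl1, the ferritin light chain, had -4.25. Csnk1d had -3.71, Gnl1 had -3.47, Wars had -3.84, Kctd10 had -4.51 and Evl had -5.09. Rraga was the 1 gene of these 17 with a positive value, 2.20, whereas 158 of all 421 called genes had one.

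Stradb, AI506816 and Cdip1 had -11.25, -10.16 and -7.83, but none of them had reads in microglia sEVs, so these fitted values are not sizes to rely on. Cdip1, which acts in p53-dependent cell death, had 237, 295 and 256 CPM in neuron sEVs, at least 48.7-fold above the floor of microglia sEVs, and means of 18.3 and 98.6 CPM in microglia and neuron cells. AI506816 had 221, 249 and 114 CPM in neuron sEVs and means of 58.2 and 45.9 CPM in the cells.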

How the results depend on the processing

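The count of 4252 genes called between the sEVs, of 8184 tested, ranged from 2938 (6 libraries alone, 5122 tested) to 4502 (DESeq2, 8184 tested). It ranged from 3879 to 3985 with 1 sEV library left out. The replicate numbers showed no pairing of microglia sEV with neuron sEV libraries (same-number correlations of -0.0073, -0.0107 and -0.0128). Pairing of sEV libraries with their source cells was not checked in this way. With the number as a block, 4004 genes, 3126 isoforms, 77 genes in usage and 367 genes in the difference contrast were called. The difference between sEV and cell contrasts was the least stable count: DESeq2 called 930 genes (393 higher, 537 lower), plain totals called 871, and leaving out 1 library gave 274 to 505. The 6-library fit called 2400 of the 4424 isoforms it tested, and 112 of 553 genes in usage. Usage gave 313 genes with the F test and 57 to 92 with 1 library left out. The share of reads in isoforms with unannotated splice sites was lower in microglia sEVs by 2.79 percentage points (-2.79) but higher by 0.326 once Gm42047 and Gm20186 were removed. The intergenic difference of -0.157 ranged from -0.247 to 0.0179 with 1 library left out, and turned only without neuron sEV library 3. Of the values for single named genes in the sEV contrast and the difference contrast, 841 kept direction and call under the alternatives, and the 3 that lost the call were all Fth1. In the cell contrast without TMM, Csnk1d, Rpl4, Wars, Kctd10 and Eef1a1 lost the call, and Rpl4 and Eef1a1 changed sign. The glycolysis, antioxidant and translation factor medians lay near 0 and their signs are not firm. Zero entries may hide single reads, which limits statements on absence. Whole groups could also be empty for commonly expressed genes. The actin gene Actb had no reads in any neuron sEV library. The glycolysis gene Gapdh and the ribosomal protein gene Rps28 had none in any microglia sEV library. Why these entries were empty was not tested, so "no reads" and "at least" folds describe the counts and may not mean absence from the vesicles.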

Other observations

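Glycolysis messages split by isoenzyme. Of 18 tested, 9 were higher in microglia sEVs and 6 in neuron sEVs, against 19.9% and 32.0% of all genes tested. Pkm, pyruvate kinase, had 1127, 1266 and 1926 CPM in microglia sEVs against 474, 684 and 841 CPM in neuron sEVs (log2 1.11, SE 0.29, adjusted p = 0.0047). Aldoc, the aldolase of brain, had 21.7, 29.1 and 27.9 CPM against 998, 1124 and 1317 CPM (log2 -5.44, SE 0.41). Antioxidant and iron genes also divided, with 7 higher in microglia sEVs and 8 in neuron sEVs of 20 tested, to be read against the same shares. Prdx1, a peroxiredoxin, was 24-fold higher in microglia sEVs (log2 4.58, SE 0.31), while Prdx6 was 12.3-fold higher in neuron sEVs (log2 -3.61, SE 0.35). Acod1, which makes itaconate in stimulated macrophages, had 1415, 2407 and 2145 CPM against no reads.

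Of 12 immediate early genes tested, 5 were higher in microglia sEVs, among them Atf3, at 647, 906 and 832 CPM against 0, 0 and 10.7 CPM, and 1 (Btg2) was higher in neuron sEVs. Of 8 nuclear long non-coding RNAs tested, 5 were higher in neuron sEVs. Malat1 had 56.2, 36.9 and 24.7 CPM in microglia sEVs and 369.8, 215 and 464 CPM in neuron sEVs (log2 -3.15, SE 0.52). Its means were 4354 and 9670.1 CPM in the cells, which were sequenced in a separate pool. Of 11 mitochondrially encoded transcripts tested, 4 were higher in neuron sEVs, or 7 with no filter on low counts. Of 18 cell cycle genes tested, Pcna and Mcm6 were higher in microglia sEVs and Cenpf, Stmn1 and Tubb4b were higher in neuron sEVs. Of 13 histone genes tested, 1 (H3f3b) was higher in microglia sEVs and 4 in neuron sEVs. Oligodendrocyte lineage markers gave 1 and 3 of 10 tested, fibroblast and vessel markers 0 and 1 of 2, and ependyma and choroid plexus markers 0 and 1 of 3. No blood marker could be tested. Over all genes tested, 19.9% were higher in microglia sEVs and 32.0% in neuron sEVs.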
